A study of Mus musculus with 2 samples.

Results

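The genes described here are 33 genes of cholesterol synthesis, of its control by the sterol regulatory element-binding proteins (SREBPs), and of sterol transport, efflux and sulfation. They were chosen by name: every gene probe whose name in the scanner files equals one of the 33 symbols was taken, which gave 61 of the 41174 gene probes. To be tested, a probe had to be flagged well above background on each array, in either channel or both. This held for 58 of the 61 probes and for all 33 genes, among 13739 genes tested in all. The study set RNA of mouse keratinocytes, the main cells of the epidermis, on 2 Agilent 2-colour arrays. On each array the Cy5 channel held RNA that the labels call CHUK-LoxP mutant (Chuk deleted through loxP sites, the sequences that Cre recombinase cuts) and the Cy3 channel held RNA labelled wild type. The labels give no age, strain, Cre driver or culture time and name no dye swap, so dye and genotype cannot be told apart. They also do not say whether the 2 arrays carry RNA of separate cultures. The p-values measure only the spread between 2 arrays, pooled in part over all probes by the fit, and that spread may be technical.

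Cells make cholesterol from acetyl-CoA through mevalonate, farnesyl diphosphate, squalene and lanosterol. When sterols in the endoplasmic reticulum are low, SCAP carries the SREBPs to the Golgi, where they are cut and released to switch on the genes of this pathway, and the INSIG proteins hold SCAP back when sterols are high. Oxidised sterols activate the nuclear receptors LXRα and LXRβ, which switch on the exporters ABCA1 and ABCG1. In the epidermis cholesterol is a main lipid of the barrier, and cholesterol sulfate, made by SULT2B1 and cleaved by steroid sulfatase, forms in the differentiating layers.

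Values are log2 ratios of the channel labelled Chuk-deleted over the channel labelled wild type after background correction and loess normalisation, as the mean ± SD of the 2 arrays (n = 2). Intensities are the same normalised signals on a linear scale. Rose and fell are used for genes past an adjusted p of 0.05 (limma, Benjamini-Hochberg adjustment over all probes tested). The p-values and 95% intervals use limma's moderated spread, which draws each probe's own spread towards that of all probes. They can thus be wider or narrower than the printed SD implies. The targeted gene went against its label: the brighter of its probes, A_51_P223475, gave 2304 and 2256 in the Chuk-deleted channel, against 1392 and 1343 in the wild-type channel (0.74 ± 0.02, adjusted p = 0.000101, limma). Its other tested probe was higher in the Chuk-deleted channel too (0.85 ± 0.11, adjusted p = 0.000103, limma). The deleted part of the gene is not given, and probes outside it check nothing, so every direction below rests on the channel labels alone. The basal keratinocyte marker Krt5 was bright in both channels (258470 and 234973 in the Chuk-deleted channel, 209921 and 209709 in the wild-type channel), and the Krt14 probe had saturated spots. All 8 suprabasal markers were called lower, but Krt1 and Dsg1a were not well above background in the Chuk-deleted channel on either array and passed the filter through the wild-type channel. Of the basal markers 7 of 8 rose, Krt14 among them (median 0.83), 6 of 8 fibroblast markers rose (median 0.73), and 5 of 5 tested melanocyte markers fell (median -1.43). In such bulk RNA, fewer cells of a type and less RNA per cell cannot be told apart.

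Of the 33 genes, 8 rose and 12 fell, and 13 did not pass the threshold. Over all 13739 genes tested, 33.0% rose and 28.3% fell (61.3% called in either direction), so the share of cholesterol genes called is close to that of all genes. Their median log2 ratio was -0.03 (-0.02 on array 1 and -0.01 on array 2), against 0.02 for all genes, and the median size of the change was 0.20, against 0.21 for all genes. Only 1 member, Sult2b1, lay at least 2-fold lower on both arrays and 0 lay at least 2-fold higher, beside 3.21% and 1.50% of all genes. The probes standing for 28 of the 33 had a mean signal above the median of all genes' probes, and the split of calls moved with the scaling. Median centring without loess raised the all-gene median by 0.53 and gave 26 members higher and 2 lower. Subtracting the mean of the spike-in controls dropped by 0.76 the all-gene median and gave 0 members higher and 32 lower. With median centring shifted so that all genes keep their loess median, 14 were higher and 8 lower. Changes are therefore given relative to the loess median of all genes, and a gene whose direction flips under that last scaling is named with its value.

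**Figure D1:**
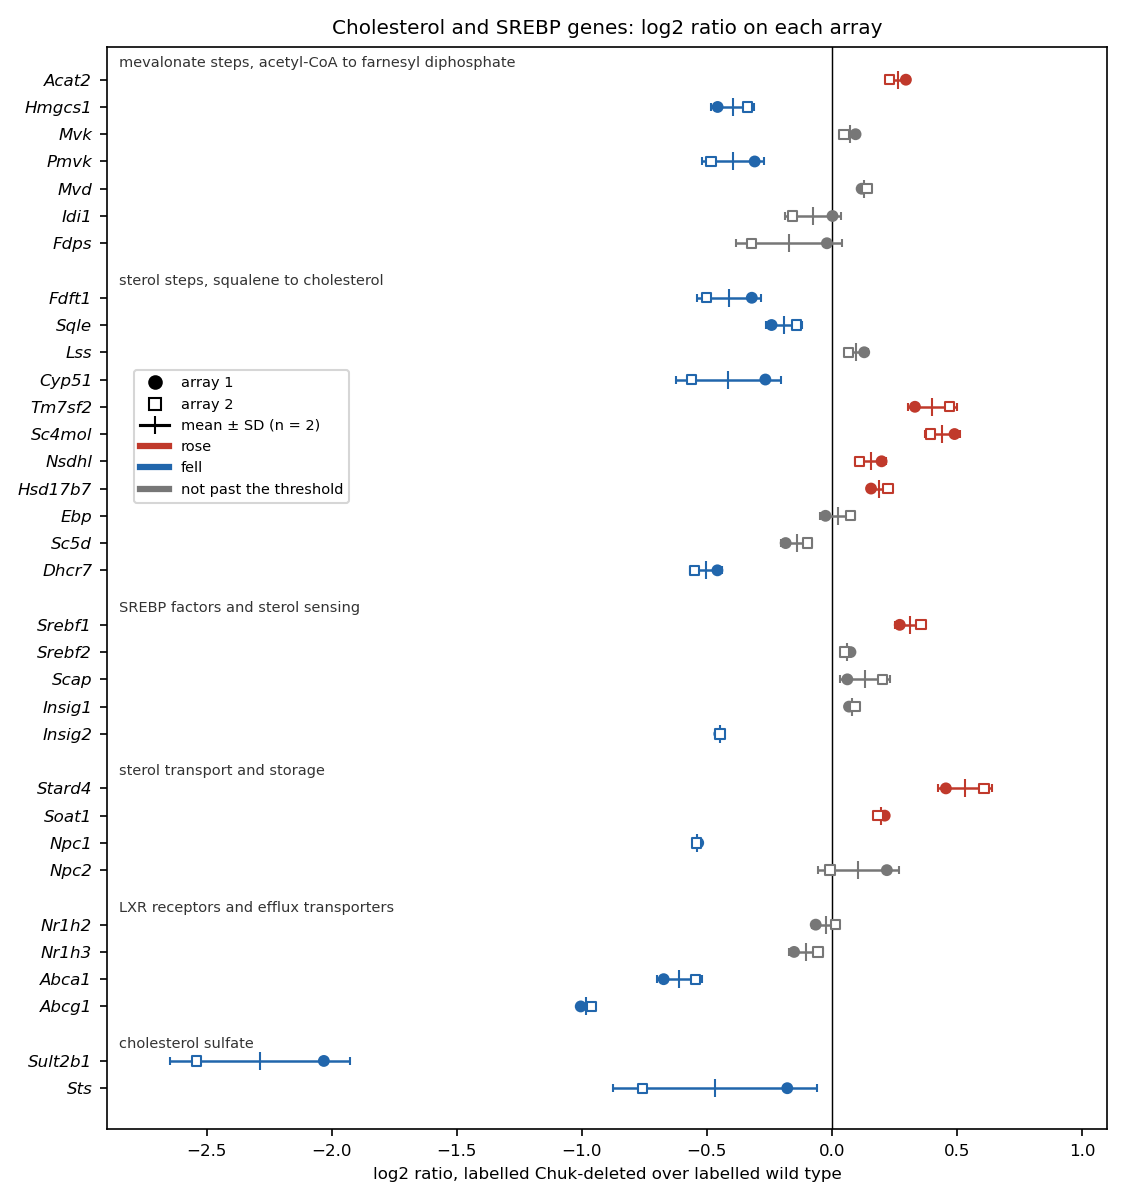
Log2 ratio of the channel labelled Chuk-deleted over the channel labelled wild type (x axis) for the 33 genes, by role (y axis), with array 1 as filled circles, array 2 as open squares and the mean ± SD of the 2 arrays as bars; colour marks the call by limma. Sult2b1 stands alone at -2.29, Abcg1 and Abca1 follow at -0.98 and -0.61, and the 18 enzymes of synthesis lie between -0.50 and 0.44.

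The SREBPs bind the sterol regulatory element, often next to a CCAAT box bound by the factor NF-Y. Promoter windows from 250 bases before to 50 bases after the start site (RefSeq, GRCm38.p6) matched 26 of the 33 genes by symbol, with 36 windows. Both strands were searched for TCACNCCAC, a consensus of the sterol regulatory element, and for CCAAT. The element was found in 1 of the 26 genes, Hmgcs1 (3.85%, against 1.44% of all 27025 genes with a window), and the CCAAT box in 20 of the 26 (76.9%, against 41.1% of all genes). A gene counted where any of its windows matched. By window the gap was smaller: the CCAAT box was in 21 of the 36 (58.3%, against 37.4% of all windows). Of the 20 genes with a CCAAT box, 6 rose, 5 fell and 9 did not pass the threshold. Of all genes tested, 33.0% rose and 28.3% fell, so these counts set the CCAAT genes apart in no direction. A match is a description of letters, not a bound site. The Hmgcs1 window is shown because it alone holds both motifs, the Sc4mol window because its gene rose under loess and holds several CCAAT boxes, and the Sult2b1 window because it belongs to the gene with the largest change among the members and holds neither motif. Capitals mark the matches, and in Hmgcs1 the sterol regulatory element is the match at position -137 from the start site, which overlaps none of the 4 CCAAT boxes. The windows lie at chr13:119690101-119690400 (plus strand, Hmgcs1), chr8:64733529-64733828 (minus strand, Sc4mol) and chr7:45759563-45759862 (minus strand, Sult2b1, the first of 2 windows).
Hmgcs1: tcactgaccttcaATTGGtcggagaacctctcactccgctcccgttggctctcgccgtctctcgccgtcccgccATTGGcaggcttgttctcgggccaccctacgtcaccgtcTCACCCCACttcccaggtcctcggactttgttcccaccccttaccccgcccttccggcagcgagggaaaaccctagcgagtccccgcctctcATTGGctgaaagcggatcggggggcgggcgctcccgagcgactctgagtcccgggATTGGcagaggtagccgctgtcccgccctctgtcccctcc
Sc4mol: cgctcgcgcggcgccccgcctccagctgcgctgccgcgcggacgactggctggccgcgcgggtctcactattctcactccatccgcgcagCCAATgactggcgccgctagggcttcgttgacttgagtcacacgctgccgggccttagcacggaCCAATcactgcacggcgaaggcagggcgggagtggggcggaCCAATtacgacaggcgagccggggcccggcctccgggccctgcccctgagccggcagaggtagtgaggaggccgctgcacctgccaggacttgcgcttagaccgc
Sult2b1: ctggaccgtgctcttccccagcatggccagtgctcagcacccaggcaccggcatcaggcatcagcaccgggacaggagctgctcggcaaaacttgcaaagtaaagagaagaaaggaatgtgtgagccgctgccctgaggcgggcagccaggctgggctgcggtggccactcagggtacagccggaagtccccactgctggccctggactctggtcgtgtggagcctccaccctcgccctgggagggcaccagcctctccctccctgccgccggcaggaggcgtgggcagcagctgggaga

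Among the 7 enzymes from acetyl-CoA to farnesyl diphosphate, 1 rose and 2 fell (median -0.08), beside 33.0% and 28.3% of all genes. Hmgcs1, the cytosolic synthase that makes HMG-CoA, had intensities of 17366 and 40388 in the Chuk-deleted channel, against 23843 and 51054 in the wild-type channel. The level of this probe differed more between the arrays than between the channels, and on each array the Chuk-deleted channel was the lower one. The ratio at this probe was -0.40 ± 0.08 (1.32-fold lower, adjusted p = 0.00138, limma), with a 95% interval from -0.54 to -0.26, but 1 of its other probes rose (0.59), so no direction can be given for the gene. Pmvk, the kinase that makes mevalonate diphosphate, gave 30537 and 28516 in the Chuk-deleted channel, against 37831 and 39860 in the wild-type channel. It fell by 0.40 on the log2 scale (SD 0.12, adjusted p = 0.00207, limma), and the channels did not overlap. Acat2, the cytosolic thiolase of the first step, rose by 0.26 ± 0.05 (adjusted p = 0.00585, limma), with 1179 and 959 in the Chuk-deleted channel against 961 and 818 in the wild-type channel, so that the channels separate within an array but overlap across arrays. The call was lost with the software's log ratio (adjusted p = 0.0509). Mvk (0.07), Mvd (0.13), Idi1 (-0.08) and Fdps (-0.17), which encode mevalonate kinase, mevalonate diphosphate decarboxylase, the isopentenyl diphosphate isomerase and farnesyl diphosphate synthase, did not pass the threshold. Their 95% intervals under loess together span -0.36 to 0.25. That range holds for the brightest probes and this scaling only: with median centring at the loess median of all genes, Mvd lay above it and past the threshold. Under loess the other tested probe of Fdps rose (0.43, adjusted p = 0.000767, limma) and lay above it too. The other tested probe of Idi1 fell (-0.25, adjusted p = 0.0108, limma), and Idi1 was past the threshold with the mean over its probes (-0.16). Fdps differed most between the arrays of these, with -0.02 on array 1 and -0.32 on array 2.

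Of the 11 enzymes from squalene to cholesterol, 4 rose and 4 fell (median 0.02), beside 33.0% and 28.3% of all genes. Dhcr7, the reductase that makes cholesterol from its last precursor, gave 26835 and 27841 in the Chuk-deleted channel, against 36864 and 40746 in the wild-type channel. Both values of the Chuk-deleted channel lay below both of the wild-type channel, and the ratio was -0.50 ± 0.06 (1.42-fold lower, adjusted p = 0.000468, limma). Fdft1, squalene synthase, read 8036 and 6718 in the Chuk-deleted channel, against 10036 and 9505 in the wild-type channel (-0.41 ± 0.13, adjusted p = 0.00187, limma). Cyp51, the lanosterol demethylase, read 5951 and 4235 in the Chuk-deleted channel, against 7158 and 6251 in the wild-type channel. Its ratio was -0.27 on array 1 and -0.56 on array 2 (-0.41 ± 0.21, adjusted p = 0.00457, limma), so the size rests in part on array 2. The other 2 tested probes of Cyp51 were not called (-0.10 and 0.11), and with the mean over its probes the call was lost (-0.14). Sqle, squalene epoxidase, fell by 0.19 on the log2 scale (SD 0.07, adjusted p = 0.0235, limma), a call lost with the software's log ratio (adjusted p = 0.105) and with offset 0 (adjusted p = 0.0532), and its value was 0.09 with median centring at the loess median of all genes.

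Sc4mol (now Msmo1), the methyl oxidase that removes methyl groups of lanosterol-derived sterols, rose, with 119316 and 109486 in the Chuk-deleted channel, against 84940 and 83336 in the wild-type channel. The channels did not overlap and the ratio was 0.44 ± 0.07 (1.36-fold, adjusted p = 0.0008, limma). Tm7sf2, a sterol reductase, had 5653 and 6274 in the Chuk-deleted channel, against 4492 and 4526 in the wild-type channel (0.40 ± 0.10, adjusted p = 0.00152, limma). Hsd17b7 (0.19 ± 0.05, adjusted p = 0.0209, limma) and Nsdhl (0.15 ± 0.06, adjusted p = 0.0458, limma), which act after Sc4mol in the same demethylation, rose at their brightest probes, while another probe of each fell (-0.19 and -0.36), and both calls were lost with the software's log ratio, with offset 0 and with the mean over probes. Lss, the cyclase that makes lanosterol (0.10, 95% interval -0.03 to 0.23), Ebp, the sterol isomerase (0.02, -0.11 to 0.16), and Sc5d, the desaturase (-0.14, -0.27 to -0.01), did not pass the adjusted threshold. Another Lss probe of almost equal brightness (mean log2 intensity 12.41, against 12.42) rose by 0.48 (adjusted p = 0.000442, limma), above the interval given for Lss.

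**Figure D2:**
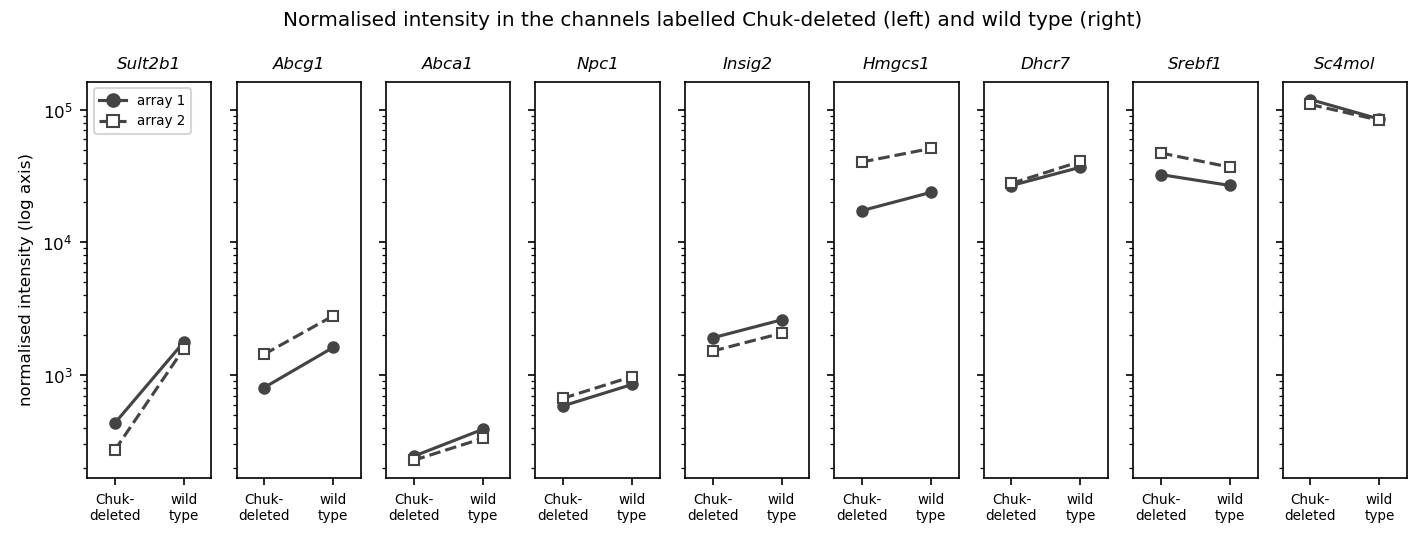
Normalised intensity (log axis) of 9 genes in the channel labelled Chuk-deleted (left of each panel) and the channel labelled wild type (right), with a line for each array. The lines of Sult2b1 and Abcg1 climb most towards wild type, those of Srebf1 and Sc4mol run the other way, and for Hmgcs1 and Abcg1 the arrays differ in level while the slope is alike.

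Srebf1, whose products drive fatty acid and sterol genes, rose among the 5 genes of SREBP control. It gave 32412 and 47187 in the Chuk-deleted channel, against 26859 and 36876 in the wild-type channel, with a higher value in the Chuk-deleted channel on each array (0.31 ± 0.06, 1.24-fold, adjusted p = 0.00305, limma). Insig2 fell: 1908 and 1517 in the Chuk-deleted channel, against 2607 and 2069 in the wild-type channel (-0.45 on each array, SD 0.0017, adjusted p = 0.000581, limma). Its second tested probe also fell (-0.32). Srebf2, the gene of the SREBP that mainly drives cholesterol synthesis (0.06, 95% interval -0.06 to 0.19), Scap (0.13, -0.01 to 0.27) and Insig1, itself a known SREBP target (0.08, -0.04 to 0.20), did not pass the threshold at their brightest probes. Of the other 3 probes of Srebf2, 2 rose (0.19 and 0.42) and 1 lay at -0.15, not called, and the other probe of Insig1 fell (-0.30).

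Sterol carriers and storage genes moved in both directions. Stard4, a cytosolic sterol carrier, gave 2541 and 3564 in the Chuk-deleted channel, against 1853 and 2339 in the wild-type channel (0.53 ± 0.11, adjusted p = 0.000548, limma), but its other 2 tested probes fell (-0.36 and -0.46), so no direction can be given for the gene. Soat1, which esterifies cholesterol for storage, rose by 0.20 ± 0.02 (adjusted p = 0.0163, limma), a call lost with the software's log ratio (adjusted p = 0.0636) and with offset 0 (adjusted p = 0.0626). Npc1, the lysosomal membrane protein that exports cholesterol, fell: 586 and 669 in the Chuk-deleted channel, against 850 and 974 in the wild-type channel (-0.54, SD 0.0046, 1.45-fold lower, adjusted p = 0.000288, limma). Its soluble partner Npc2 did not pass the threshold, with 0.22 on array 1 and -0.01 on array 2 (95% interval of the mean -0.06 to 0.27).

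Both exporters under LXR control fell, while the genes of the receptors did not pass the threshold under loess. Abcg1 read 805 and 1436 in the Chuk-deleted channel, against 1616 and 2794 in the wild-type channel. The level again differed between the arrays, and the ratios were close, -1.005 and -0.961 (-0.98 ± 0.03, 1.98-fold lower, adjusted p = 4.82e-05, limma). Abca1 read 244 and 228 in the Chuk-deleted channel, against 390 and 333 in the wild-type channel, with no overlap (-0.61 ± 0.09, 1.53-fold lower, adjusted p = 0.000273, limma). Nr1h2, the gene of LXRβ, lay at -0.03 (95% interval -0.16 to 0.10). Nr1h3, the gene of LXRα, was dim, with 104 and 115 in the Chuk-deleted channel against 115 and 119 in the wild-type channel (-0.10, -0.24 to 0.03), and it was -0.57 and past the threshold by the software's log ratio (adjusted p = 0.0124), and -0.65 and past the threshold with median centring at the loess median of all genes. Macrophages also express these genes strongly, and of the 6 macrophage and Langerhans cell markers 4 were tested, of which Lyz2 fell by 1.02 on the log2 scale and Cd68 lay at 0.13. Adgre1 and Csf1r were called lower too, but in the Chuk-deleted channel they were well above background on 1 of the 2 arrays. Ptprc and Cd207 were not tested because they did not pass the filter on background. The summed intensity of the 4 was 2861 and 2617 in the Chuk-deleted channel, against 4082 and 3885 in the wild-type channel. The part of such cells in the exporters' values was not tested.

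The largest change among the members lay in 1 of the 2 cholesterol sulfate genes. Sult2b1, the sulfotransferase (probe A_51_P403170), read 433 and 271 in the Chuk-deleted channel, against 1772 and 1578 in the wild-type channel. The channels lay far apart on both arrays, with ratios of -2.03 and -2.54 (-2.29 ± 0.36, 4.88-fold lower, adjusted p = 4.33e-05, limma). Sult2b1 is a gene of the differentiating layers, and the suprabasal markers fell on the same arrays: the envelope protein gene Lor lay at -2.82 ± 0.89 and the protease gene Klk7 at -5.10 ± 1.97. The summed intensity of the 8 suprabasal markers was 6513 and 2851 in the Chuk-deleted channel, against 47955 and 64841 in the wild-type channel. Klk7 alone gave 33068 and 50507 of the wild-type sums, which therefore mostly follow that gene. Across the 8 markers the median was -2.23, and the values ran from -5.10 (Klk7) to -0.25 (Krt10). The part of the cell state in the Sult2b1 value was not tested. Sts, the sulfatase that reverses the step, read 4013 and 2574 in the Chuk-deleted channel, against 4542 and 4350 in the wild-type channel. It fell by 0.47 on the log2 scale, but with -0.18 on array 1 and -0.76 on array 2 (SD 0.41, adjusted p = 0.0191, limma) the size depends on the array, and the call was lost with the software's log ratio (adjusted p = 0.102).

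Different probes of a gene did not always give the same sign. Of the 16 members with several tested probes, 3 had the same call at every probe (Pmvk, Dhcr7 and Insig2, all lower), 2 had no call, 7 were called at only some probes and 4 were called in opposite directions (25%, against 9.81% of the 5527 such genes on the arrays). The 4 were Hmgcs1, Hsd17b7, Nsdhl and Stard4. The shares of 25% and 9.81% were not matched for the number of probes per gene or for brightness, so they show no trait of the members. Hmgcs1 fell at both probes designed to its reference transcript (-0.40 and -0.71) and rose at a probe designed to a cDNA clone (0.59). Hsd17b7 gave 0.19 and -0.19 at probes to 1 transcript, and Nsdhl gave 0.15, 0.22 and -0.36 at 3 probes to its transcript and 0.46 at a clone probe. Fdps and Lss likewise rose only at a clone probe (0.43 and 0.48). The files hold no probe sequences, so where in the transcripts these probes lie is not known here.

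**Figure D3:**
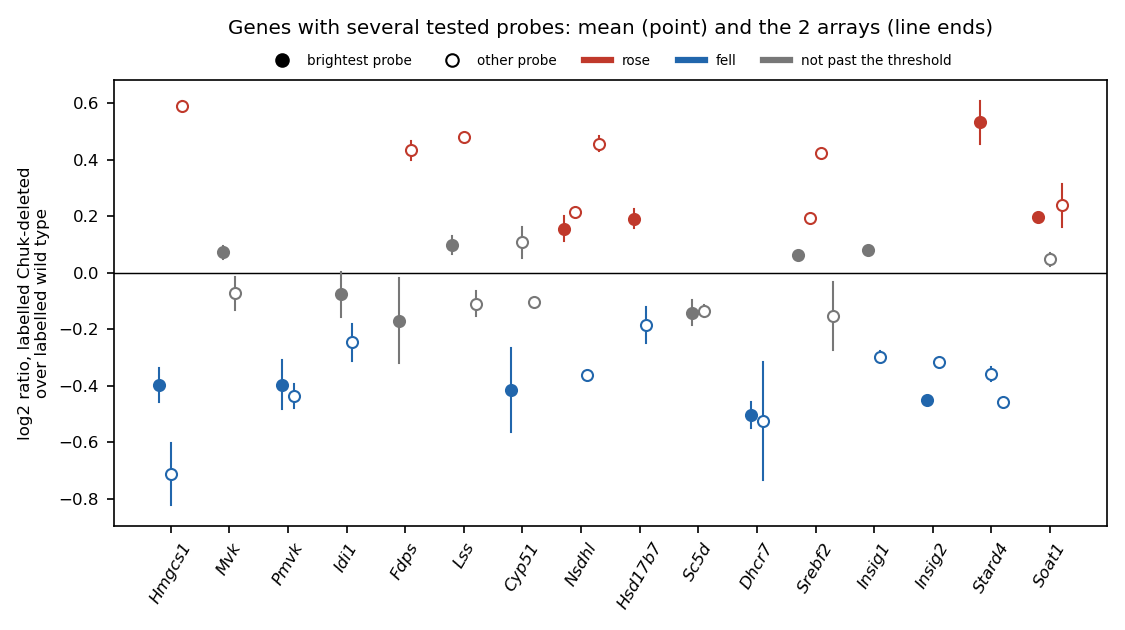
Log2 ratio of the channel labelled Chuk-deleted over the channel labelled wild type (y axis) at every tested probe of the 16 genes with several (x axis), with the mean as a point, filled for the brightest probe, and the 2 arrays as the ends of a line. For Hmgcs1 (-0.40, -0.71 and 0.59) and Stard4 (0.53, -0.36 and -0.46) the lines of the rising and falling probes lie on opposite sides of 0.

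Under median centring at the loess median of all genes, the 18 synthesis enzymes gave 8 higher and 1 lower, in place of 5 and 6 under loess, and their median was 0.17 in place of -0.03. Of all genes, 28.8% were higher and 29.1% lower under that scaling. Dhcr7 was then -0.21, Fdft1 -0.22, Hmgcs1 -0.12 and Pmvk -0.10, none of them past the threshold, while Cyp51 kept its call at -0.25. Sult2b1 (-2.27), Abcg1 (-0.90), Abca1 (-0.75), Npc1 (-0.52) and Insig2 (-0.35) stayed lower and past the threshold, and Sc4mol (0.82), Srebf1 (0.61) and Tm7sf2 (0.56) stayed higher. The brightest probe of Stard4 stayed higher too (0.64), but its other tested probes fell under loess, so no direction is given for that gene. Srebf2 (0.39), Scap (0.40), Npc2 (0.40), Ebp (0.34), Mvd (0.28) and Lss (0.26) were past the threshold under this scaling and not under loess. The fit under this scaling gave every probe the same spread, so its calls go by the size of the ratio alone.

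**Figure D4:**
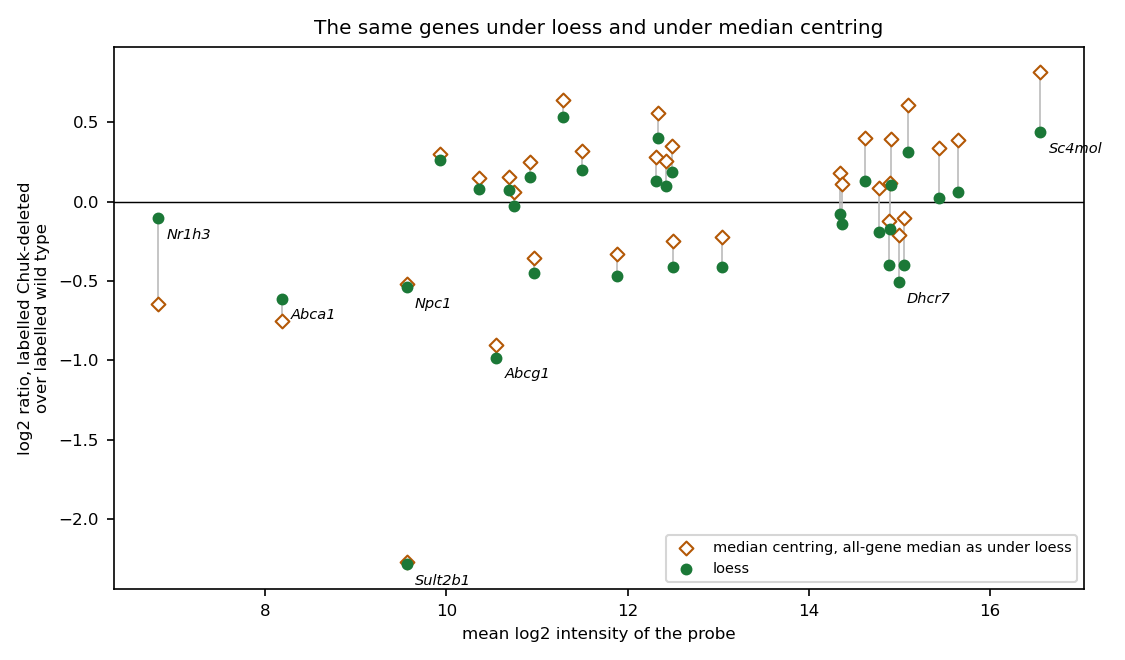
Log2 ratio (y axis) of the 33 genes against the mean log2 intensity of their probe (x axis), under loess (filled circles) and under median centring with the loess median of all genes (open diamonds), joined for each gene. The diamonds lie above the circles for the bright genes and below them for the dim Nr1h3 and Abca1, and the pair for Sult2b1 nearly coincides (-2.29 and -2.27).

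Outside the 33 genes, 28 other sterol genes and 16 genes of the fatty acid arm of SREBP control were listed. Of the sterol genes 8 rose and 4 fell of 28 tested (median 0.01), and of the fatty acid genes 6 rose and 3 fell of 15 tested (median 0.12), beside 33.0% and 28.3% of all genes. The fatty acid genes that rose include Acaca (0.19, adjusted p = 0.0189, limma). Acaca was not well above background in the wild-type channel on either array and passed the filter through the Chuk-deleted channel. Its other tested probes were not called (0.10 and 0.12). Ch25h, which makes 25-hydroxycholesterol, an oxysterol that activates LXR and holds back SREBP processing, had 98.4 and 82.4 in the Chuk-deleted channel, against 859 and 853 in the wild-type channel. It fell (-3.25 ± 0.17, adjusted p = 9.04e-06, limma), but the Chuk-deleted channel was well above background on 1 of the 2 arrays and the size depended on the background correction, with -4.82 by the software's log ratio and -4.18 with offset 0. Macrophages express this gene as well, and the macrophage marker values above stand beside it too. Apoe, a sterol-carrying apolipoprotein, rose: 7728 and 9911 in the Chuk-deleted channel, against 3934 and 3985 in the wild-type channel (1.14 ± 0.24, 2.21-fold, adjusted p = 0.000127, limma).

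Cyp7b1, an oxysterol hydroxylase (0.64 ± 0.04, but 1.11 by the software's log ratio and 0.38 with median centring at the loess median), the lipoprotein receptor Scarb1 (0.42 ± 0.13) and the mitochondrial thiolase Acat1 (0.26 ± 0.02) also rose, and the late endosomal sterol protein Stard3 fell by 0.31 ± 0.01 (-0.14 and not past the threshold with median centring at the loess median). In the fatty acid arm, the desaturases Fads2 (0.68 ± 0.16) and Fads1 (0.34 ± 0.04), the phosphatidate phosphatase Lpin1 (0.60 ± 0.06), the elongase Elovl5 (0.38 ± 0.07) and the acetyl-CoA synthetase Acss2 (0.36 ± 0.01) rose. The other tested probes of Lpin1 rose as well, with sizes that differed widely (0.52, 0.70 and 1.39). Fasn (0.004), Acly (-0.03), Scd1 (0.03), Scd2 (-0.13), Elovl6 (0.14) and Me1 (0.12) did not pass the threshold at their brightest probes. Another probe each of Fasn (0.27), Acly (0.22) and Me1 (0.26) rose. Pnpla3, a lipid droplet hydrolase, had 968 and 717 in the Chuk-deleted channel, against 2519 and 2100 in the wild-type channel, and fell by 1.46 on the log2 scale (SD 0.12, adjusted p = 2.82e-05, limma). Mid1ip1, an activator of acetyl-CoA carboxylase, had 13942 and 21559 in the Chuk-deleted channel, against 28385 and 49172 in the wild-type channel, and fell by 1.11 (SD 0.12, adjusted p = 5.29e-05, limma). Gpam, a glycerol phosphate acyltransferase, fell by 0.21 ± 0.07, with -0.41 at offset 0 and -0.78 with median centring at the loess median, and the call was lost with the software's log ratio (-0.53, adjusted p = 0.0546). Beside these lipid genes, of 8 sebocyte markers 5 were tested and all 5 fell (Dgat2 by 1.56 ± 0.11, Plin2 by 0.16), while Mc5r, Awat2 and Far2 did not pass the filter on background. The summed intensity of the 5 was 26595 and 29392 in the Chuk-deleted channel, against 35143 and 40539 in the wild-type channel. Plin2 alone gave 23334 and 26327 of the Chuk-deleted sums, which therefore mostly follow that gene. Pparg (-0.23) and Mogat1 (-0.25) were dim, and Krt79 differed widely between the arrays (-1.86 and -4.30). Of 6 adipocyte markers the 2 tested rose, Lpl by 0.58 ± 0.11 and Fabp4 by 0.21 (SD 0.0014), and Adipoq, Plin1, Cidec and Cfd did not pass that filter. The part of such cells in these values was not tested.

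**Figure D5:**
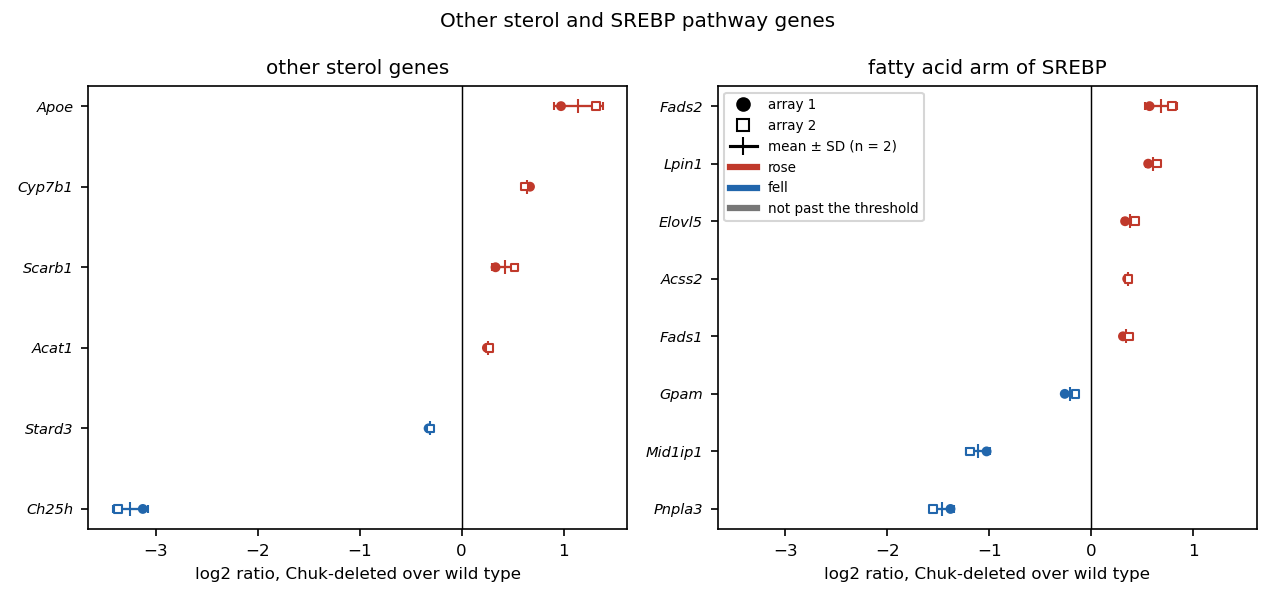
Log2 ratio of the channel labelled Chuk-deleted over the channel labelled wild type (x axis) for other sterol genes (left) and genes of the fatty acid arm (right). Only the named genes past the threshold are drawn, each at its brightest probe, and Acaca is left out. Array 1 is shown as filled circles, array 2 as open squares and the mean ± SD as bars. Ch25h (-3.25), Pnpla3 (-1.46) and Mid1ip1 (-1.11) lie lowest, and Apoe (1.14) lies highest.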

How the data were processed

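The 2-colour arrays of keratinocytes labelled Chuk-deleted (Cy5) and wild type (Cy3) were read as deposited. Per the file headers, Agilent Feature Extraction 9.1.3.1 wrote the spot intensity as mean pixel brightness with the median local background, uncorrected. A log10 ratio of processed, dye-normalised signals stands beside it, per the file headers. The deposited value table differed from that log10 ratio by at most 0.005, which gives it the software's scale and direction, and both columns had a median of 0. Per the file headers, flags of 0 or 1 mark spots above background, saturated or outlying. The aligner, caller or genome build behind the probe design is not given in the sources used here.

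Intensities were corrected with limma 3.58.1 in R 4.3.3 (normexp, offset 50) and loess-normalised array by array, control spots having weight 0. Outlier spots (51 and 18) were left out and spots of a probe averaged. Probes flagged well above background on each array, in either channel or both (23519 of 41174), entered lmFit and eBayes, a two-sided test against 0. The Benjamini-Hochberg adjustment ran over these probes, and the fit had 1 residual and 5.16 prior degrees of freedom. The fit was also run on data simulated from its own estimated spread, which hold no dye or scaling effect and so do not check those. A gene is its tested probe with the highest mean intensity. Channel intensities are those after loess and Aquantile scaling. The number of arrays limits the precision, both arrays came from 1 slide and 1 scan, and median spot intensity was 218 and 171.5 in Cy5 and 109.9 and 95.2 in Cy3.

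Members keep the name in the files. Other probes were renamed through RefSeq (GRCm38.p6): 16129 tested probes by accession, 4721 by symbol or synonym, 628 kept their name and 2041 had none. The members, and the lists of other genes and markers, were chosen with earlier results of these data known. All 33 members are named whatever their value. Of the other pathway lists, up to 8 genes past the threshold with the largest change are named (some of these are not reported here), and of the marker lists the 2 brightest. Further marker genes in the text, Acaca, and the tested fatty acid genes not past the threshold were named after their values were seen. Alternatives were the software's log ratio, offset 0, median centring, spike-in centring, no or a stricter filter, the mean over a gene's probes, and each array alone.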

Additional observations from a re-analysis of the deposited data

How the results depend on the processing

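The 2 arrays, the lack of a dye swap and the single slide limit every value. Across genes the arrays correlated at 0.96 (Pearson), and genes are not independent replicates. No paired analysis was possible because the 2 arrays form 1 group of ratios with no other group to block on. Each ratio already pairs the channels of its array. With either array alone no test has residual degrees of freedom, and the median of the members lay between -0.020 and -0.0083. The software's log ratio gave 4 members higher and 11 lower. Normexp with offset 0 gave 5 higher and 11 lower, with a median of -0.057. The mean over a gene's probes gave a median of -0.095, and turned Fdps (0.13), Insig1 (-0.11), Mvk (-0.0011) and Stard4 (-0.10). No filter or both channels above background left the counts within 1.5 times.

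Median centring without loess gave 26 members higher and 2 lower, 35 other pathway genes higher and 4 lower, and a member median of 0.67. It turned Insig2 (0.17), Fdps (0.65), Pmvk (0.43), Sc5d (0.64), Fdft1 (0.30), Sqle (0.62), Nr1h2 (0.59), Npc1 (0.0083), Sts (0.20), Idi1 (0.71), Cyp51 (0.28), Hmgcs1 (0.41), Dhcr7 (0.32) and Stard3 (0.39). Lowering by the spike-in mean gave 0 higher and 32 lower, 1 and 39 among the other pathway genes, and a member median of -0.78. It turned Acat2 (-0.50), Srebf2 (-0.70), Tm7sf2 (-0.36), Hsd17b7 (-0.57), Soat1 (-0.56), Npc2 (-0.65), Srebf1 (-0.44), Stard4 (-0.23), Mvd (-0.63), Lss (-0.66), Insig1 (-0.68), Nsdhl (-0.60), Sc4mol (-0.32), Mvk (-0.69), Scap (-0.63), Ebp (-0.73), Acss2 (-0.40), Cyp7b1 (-0.11), Acat1 (-0.50), Fads1 (-0.42), Lpin1 (-0.16), Fads2 (-0.076), Scarb1 (-0.33), Elovl5 (-0.38) and Chuk (-0.020). Both shift all genes by construction (0.53 and -0.76 in their median). In these and in the shifted median centring below, limma's prior degrees of freedom were infinite, so all probes share 1 spread and the calls go by size.

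Median centring shifted to the loess median of all genes, chosen after seeing the data, gave 14 members higher and 8 lower with a median of 0.15, and turned Fdps (0.12), Sc5d (0.11), Sqle (0.090), Nr1h2 (0.063) and Idi1 (0.18). The cause was not tested. Of the 20 members called, Abca1, Abcg1, Insig2, Npc1, Sc4mol, Srebf1, Sult2b1 and Tm7sf2 kept call and direction under this scaling, the software's ratio, offset 0, both filters and the mean over probes, and 7 of these 8 have 1 tested probe, for which the last changes nothing.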
